A study of Mus musculus with 60 samples.

Results

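The complement and coagulation cascades are chains of plasma proteases, most of them made by hepatocytes and released into the blood as inactive precursors. Complement marks microbes and damaged cells through C3, draws in leukocytes through its anaphylatoxins and ends in the membrane attack complex, while coagulation runs through thrombin to a fibrin clot that plasmin later dissolves. Several of these proteins, fibrinogen and C3 among them, are known acute-phase reactants whose synthesis in the liver rises in inflammation. The 50 genes described here were taken by symbol from a named list of both cascades, all 50 were found among the 54532 genes of the expression table, and they are grouped below into 13 roles. The list was chosen with earlier results of these data known.

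The samples came from male wild-type C57BL/6 mice made obese by a high-fat diet, started at 12 weeks of age and given for 16 to 20 weeks. At about 28 weeks of age 5 mice (numbered 6 to 10) received sulforaphane (SFN, an isothiocyanate derived from cruciferous vegetables) at 5 mg/kg by daily intraperitoneal injection for 1 week, and 5 mice (numbered 1 to 5) received vehicle in the same way. All 10 mice, and so both groups, carried the diet-induced obesity, and no lean or untreated mice are part of these data. From each mouse the liver, epididymal white adipose tissue (eWAT), inguinal white adipose tissue (iWAT), brown adipose tissue (BAT), skeletal muscle and hypothalamus were profiled by bulk RNAseq of polyadenylated RNA, 60 libraries in all.

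Levels are given as FPKM, fragments scaled to gene length and library depth, as deposited. The recovered depth was 15014549 to 25629640 reads a library (median 17224428). Each tissue had its defining markers at or above 0.5 FPKM (12 of 12 for hepatocytes in liver, 6 of 6 for adipocytes in all 3 adipose depots, for brown adipocytes in BAT and for muscle in skeletal muscle, and 7 of 7 for neurons in hypothalamus). The 6 muscle markers, which summed to 78600 to 99500 FPKM in skeletal muscle, also reached 2840 FPKM in BAT of SFN mouse 7, 3250 FPKM in BAT of vehicle mouse 3 and 1410 FPKM in iWAT of vehicle mouse 4, against 608 FPKM or less in the other BAT and iWAT libraries. In iWAT the summed level of 8 lymphocyte markers was 149 to 283 FPKM in SFN mice 6, 7 and 8 and vehicle mouse 2, against 1.69 to 8.72 FPKM in the other 6 mice. Passing 0.5 FPKM does not show that a tissue was pure. All 6 adipocyte markers also passed it in skeletal muscle, at sums of 75 to 222 FPKM with SFN and 84.2 to 160 with vehicle. In bulk tissue, fewer cells of a type and less RNA per cell cannot be told apart.

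In vehicle mice the liver was the main source of these transcripts. Of the 50 genes, 39 were higher in liver than in each of the 5 other tissues (limma, adjusted p under 0.05 in all 5 comparisons), beside 14.4% of the 20043 genes tested in that way. Among those 39, 25 reached a mean of 0.5 FPKM in liver alone, and 26 had a liver mean over 100-fold above that of any other tissue. The fibrinogen chains were among the most abundant, with Fgg at 1681 ± 228, Fga at 1584 ± 289 and Fgb at 1171 ± 181 FPKM in vehicle liver (SD, n = 5), and no other tissue had a mean above 0.037 FPKM for any of them. C3, the protein on which all complement pathways converge, lay between Fga and Fgb at 1267 ± 214 FPKM, and Kng1, a kininogen gene, followed at 821 ± 43.2 FPKM.

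A smaller set of the 39 genes was also transcribed outside the liver. C3 averaged 1267 FPKM in liver, 585 in eWAT, 108 in iWAT, 57.2 in BAT, 13 in skeletal muscle and 0.59 in hypothalamus, and no neighbours in that order overlapped among the vehicle mice. Serping1, which encodes the C1 inhibitor, had 464 FPKM in liver and 207 FPKM in eWAT. F7, the factor VII gene, had 66.2 FPKM in liver and 34.6 FPKM in eWAT, the smallest gap between the liver and another tissue among the 39 (1.92-fold). Kng2, a kininogen gene next to Kng1, had 142 FPKM in liver and 71.2 FPKM in BAT but 1.23 FPKM or less elsewhere, whereas Kng1 did not exceed 0.0256 FPKM outside the liver. C6, a subunit of the membrane attack complex, had 66.5 FPKM in liver and 13.2 FPKM in iWAT. The lowest of the 39 in liver was factor VIII (F8), at 0.547 to 1.35 FPKM, which overlapped iWAT at 0.232 to 0.754 FPKM.

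The other 11 genes were not liver genes by this measure. The 3 chains of C1q, the recognition unit of the classical pathway, which tissue macrophages and microglia are known to make, were highest in eWAT at 522 (C1qa), 712 (C1qb) and 314 FPKM (C1qc), which was 4.34-fold the level in iWAT, the next highest, for C1qa, 5.35-fold for C1qb and 5.15-fold for C1qc. The anaphylatoxin receptor genes C3ar1 and C5ar1 had 72.4 and 86.3 FPKM in eWAT, and properdin (Cfp), the stabiliser of the alternative pathway convertase, had 75.8 FPKM there. Protein S (Pros1), thrombomodulin (Thbd) and tissue factor pathway inhibitor (Tfpi) also had their highest mean in eWAT, but Tfpi in eWAT and iWAT overlapped. Tissue factor (F3), which starts coagulation, had 18.5 FPKM in BAT and 16.1 FPKM in hypothalamus, values that overlapped, and Vwf, the von Willebrand factor gene of endothelium and platelets, had 3.92 FPKM in iWAT, 3.42 in skeletal muscle and 3.34 in eWAT, which overlapped as well.

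**Figure D1:**
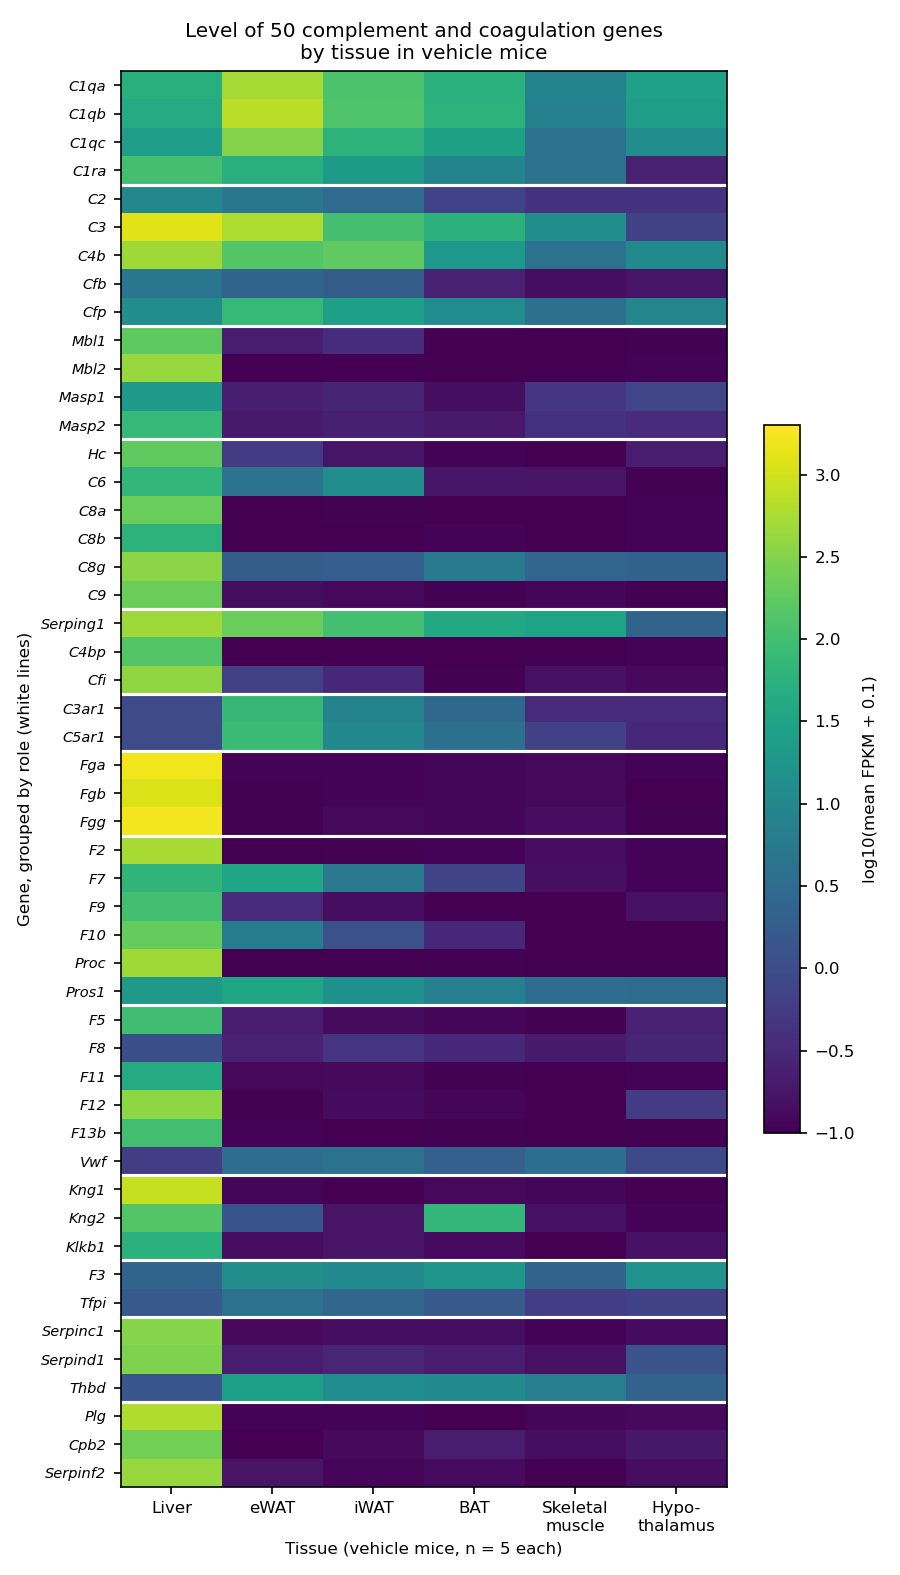
Mean level of each of the 50 genes (rows, grouped by role) in the 6 tissues (columns) of vehicle mice, coloured by log10(mean FPKM + 0.1), n = 5 mice a tissue. In the rows of 39 genes the liver column is the brightest, from Fgg at 1681 FPKM down to F8 at 0.976 FPKM. The C1q chains and the anaphylatoxin receptors are brightest in eWAT, and Kng2 also stands out in BAT at 71.2 FPKM.

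In liver, SFN-treated mice had higher levels of fibrinogen, C3 and several other plasma factors. A gene was tested where its mean over the 10 livers was at least 0.5 FPKM, limma compared log2(FPKM + 0.1) between the groups, and a gene passed at a Benjamini-Hochberg adjusted p under 0.05 over all 13388 genes tested. Vwf (0.235 to 0.56 FPKM in SFN livers, 0.306 to 0.811 FPKM in vehicle livers) fell under that minimum, so 49 of the 50 genes were tested. Of these 19 were higher in SFN livers, 38.8% of the 49, beside 6.89% of all genes tested, and 2 were lower, 4.08%, beside 6.19% of all genes tested. For 18 of the 49 every SFN liver was above every vehicle liver, beside 6.26% of all genes tested. Because the list was chosen with earlier results of these data known, these shares describe it and are no independent test. The median log2 fold change was 0.11 over the 49 genes and -0.02 over all genes. In reads, the 50 genes held 5.72%, 6.66%, 6.91%, 4.86% and 6.27% of the reads in SFN livers, against 3.55%, 3.52%, 3.48%, 3.06% and 3.02% in vehicle livers.

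**Figure D2:**
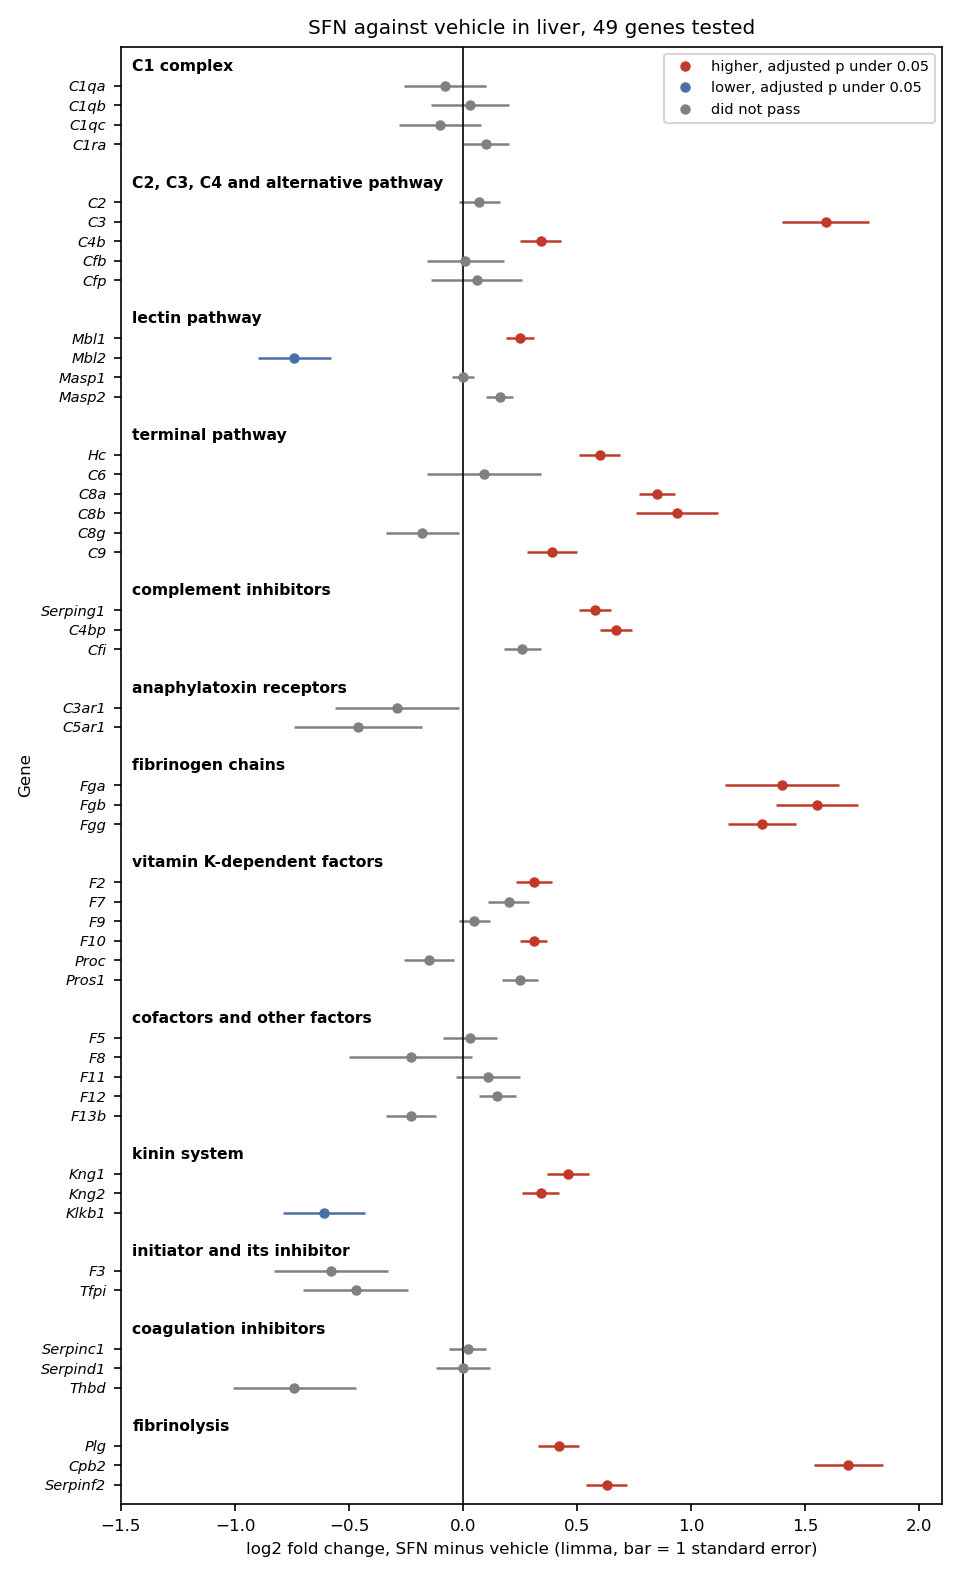
Log2 fold change of SFN minus vehicle in liver (limma, bars are 1 standard error) for the 49 genes tested, by role, with 5 mice a group. The 19 genes that passed as higher (red) include Cpb2 at 1.69, C3 at 1.59 and all 3 fibrinogen chains, the 2 that passed as lower (blue) are Mbl2 and Klkb1, and the remaining 28 (grey) did not pass.

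All 3 fibrinogen chains rose. Fgb, the beta chain, was at 3659, 3868, 4157, 2219 and 3463 FPKM in the livers of SFN mice 6 to 10, against 1327, 1338, 1237, 989 and 966 FPKM in those of vehicle mice 1 to 5. Its log2 fold change was 1.55 (standard error 0.18, limma adjusted p = 0.00128). Every SFN liver lay above every vehicle liver, and the exact two-sided permutation p was 0.00794, the smallest that 5 mice against 5 allow. Fga, the alpha chain, had 3802, 4862, 6765, 2445 and 3838 FPKM with SFN and 1724, 1711, 1914, 1357 and 1214 FPKM with vehicle (log2 fold change 1.40, standard error 0.25, limma adjusted p = 0.00869). Fgg, the gamma chain, had 4435, 4470, 4761, 3012 and 4278 FPKM with SFN and 1877, 1870, 1786, 1472 and 1401 FPKM with vehicle (1.31, standard error 0.15, limma adjusted p = 0.00128). SFN mouse 9 was the lowest of its group for each chain and vehicle mice 4 and 5 were the lowest of theirs, and the groups did not overlap. The 3 chains took 1.49% to 3.24% of all liver reads in SFN mice and 0.735% to 1.03% in vehicle mice. The Fgb to Fgg ratio was 0.822 ± 0.0546 in SFN livers and 0.695 ± 0.0168 in vehicle livers, and the Fga to Fgg ratio was 1.01 ± 0.25 in SFN livers and 0.939 ± 0.0777 in vehicle livers (SD, n = 5).

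The fibrinogen genes lie beside each other on mouse chromosome 3 (Fgg at 83007724 to 83015049, Fga at 83026076 to 83033627 and Fgb at 83040141 to 83049863, GRCm38), and their upstream sequences are shown because all 3 rose together, with that of Cpb2, the gene with the largest fold change of the 50. Bases in capitals match a STAT3 motif (TTCNNNGAA), an IL-6 response motif (CTGGGAA) or a C/EBP motif (TTGCNNAA) on either strand, elements known from acute-phase genes. The sequences come from RefSeq (GRCm38.p6) and end at the last base before the annotated gene, and that of Fga is shortened to 173 bases because the rest overlaps an annotated exon.
Fga (chr3:83025903-83026075, plus strand): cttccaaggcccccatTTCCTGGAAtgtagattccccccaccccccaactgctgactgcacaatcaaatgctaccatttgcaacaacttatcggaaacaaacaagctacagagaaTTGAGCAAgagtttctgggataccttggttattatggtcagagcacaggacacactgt
Fgb (chr3:83049864-83050113, minus strand): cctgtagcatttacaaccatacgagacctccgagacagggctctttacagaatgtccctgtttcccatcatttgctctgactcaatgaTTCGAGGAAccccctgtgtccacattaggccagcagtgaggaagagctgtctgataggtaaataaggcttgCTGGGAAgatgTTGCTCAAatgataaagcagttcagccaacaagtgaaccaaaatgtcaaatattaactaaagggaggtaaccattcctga
Fgg (chr3:83007474-83007723, plus strand): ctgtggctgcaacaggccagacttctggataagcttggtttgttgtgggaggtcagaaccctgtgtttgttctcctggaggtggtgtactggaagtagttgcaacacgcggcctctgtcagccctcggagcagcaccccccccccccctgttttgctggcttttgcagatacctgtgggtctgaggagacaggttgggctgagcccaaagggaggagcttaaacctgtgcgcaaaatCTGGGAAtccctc
Cpb2 (chr14:75242037-75242286, plus strand): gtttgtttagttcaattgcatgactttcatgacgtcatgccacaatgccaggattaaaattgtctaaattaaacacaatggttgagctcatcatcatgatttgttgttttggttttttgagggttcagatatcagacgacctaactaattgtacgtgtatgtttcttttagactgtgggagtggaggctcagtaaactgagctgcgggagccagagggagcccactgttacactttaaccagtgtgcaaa

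In the Fgb sequence a match to each of the 3 motifs was found, in Fga a STAT3 and a C/EBP match, in Fgg 1 IL-6 response match and in Cpb2 none. Of the 38 genes with a promoter in the RefSeq table, 6 (15.8%) held the STAT3 motif in the 250 bases before the start, 6 (15.8%) the IL-6 response motif and 8 (21.1%) the C/EBP motif, beside 7.18%, 9.08% and 9.55% of all 27025 promoters. Among the 15 of them that rose in liver the numbers were 3, 2 and 5. Genes that did not pass held them too: F9, whose level was at 109 ± 9.49 FPKM with SFN and 105 ± 6.46 FPKM with vehicle, had all 3, its STAT3 and IL-6 response matches sharing bases, as did those of Masp2. These are matches of letters and say nothing of binding.

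Among the central complement components, C3 and C4b rose and the other 3 genes did not pass. C3 was at 2918, 4683, 4227, 2826 and 4586 FPKM in SFN livers, against 1428, 1406, 1425, 1106 and 970.0 FPKM in vehicle livers (log2 fold change 1.59, standard error 0.19, limma adjusted p = 0.00141). SFN mice 7, 8 and 10 had the 3 highest values, and the groups did not overlap. C4b, the C4 that feeds the classical and lectin pathways, had 635, 548, 569, 616 and 669.6 FPKM with SFN and 531, 524, 494, 421 and 439 FPKM with vehicle (0.34, limma adjusted p = 0.0362). The groups stood apart by little, the adjusted p ranged from 0.0389 to 0.0883 with 1 mouse left out, and leaving out mouse 3, 4, 5, 6, 8, 9 or 10 ended the call. C4b shares nearly all its sequence with C4a (17.9 FPKM with SFN, 12.9 with vehicle), so how reads were divided between them is uncertain. C2 (10.7 ± 0.829 FPKM with SFN, 10.2 ± 1.3 with vehicle), factor B (Cfb, 4.8 ± 0.653 and 4.87 ± 1.27) and properdin (13.8 ± 3.27 and 13.2 ± 3.18) did not pass. The levels of C2 and Cfb are uncertain, since 42.8% of the C2 exon bases and 79.5% of those of Cfb also belong to an annotated readthrough gene, Gm20547, which is listed at 0 in all 10 livers.

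The C1 complex did not pass in liver. C1qa had 37.7 to 65.8 FPKM with SFN and 33.5 to 59.5 with vehicle, C1qb 37.8 to 60.1 and 28.9 to 53.5, and C1qc 18.9 to 30.9 and 16.4 to 30.1. C1ra, a protease of the complex with a near-identical copy, C1rb, listed at no more than 0.0851 FPKM, had 114 ± 15 FPKM with SFN and 106 ± 9.94 with vehicle (log2 fold change 0.10).

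In the lectin pathway the mannose-binding lectin genes went in opposite directions. Mbl2 was at 329.7, 221, 226, 329 and 222 FPKM in SFN livers, against 534, 386, 399.7, 364 and 519 FPKM in vehicle livers (log2 fold change -0.74, standard error 0.16, limma adjusted p = 0.0181). Mbl1 had 224, 196, 187, 207 and 213 FPKM with SFN and 186, 169, 172, 166 and 168 FPKM with vehicle (0.25, standard error 0.06, limma adjusted p = 0.0295). Neither pair of groups overlapped, and the Mbl2 to Mbl1 ratio was 1.29 ± 0.232 in SFN livers and 2.55 ± 0.401 in vehicle livers. For Mbl1 the adjusted p was 0.0297 to 0.0701 with 1 mouse left out, and the call ended without mouse 2, 3, 4, 5, 6 or 10. The proteases that the lectins activate did not pass: Masp1 had 20.9 FPKM in both groups, and Masp2 had 83.2 ± 5.36 FPKM with SFN and 74.6 ± 3.98 with vehicle (limma adjusted p = 0.122). The Masp2 level is uncertain, because 54.9% of its exon bases lie opposite exons of Tardbp (19.6 FPKM with SFN, 21.6 with vehicle) and whether the counting used strand is not given in the sources used here.

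The terminal pathway builds the membrane attack complex from C5 onwards, and 4 of its 6 genes rose. C8a, the alpha chain of C8, was at 413, 410.1, 322, 385 and 363 FPKM in SFN livers, against 189, 211, 213, 224 and 212 FPKM in vehicle livers (log2 fold change 0.85, standard error 0.08, limma adjusted p = 0.000525). C8b, the beta chain, had 111, 168, 90.3, 107 and 113 FPKM with SFN and 57, 41.9, 62.8, 72 and 72.6 FPKM with vehicle (0.94, standard error 0.18, limma adjusted p = 0.0126). The groups did not overlap for either chain. C8g, the gamma chain of the same protein, had 376, 263, 244, 379 and 301 FPKM with SFN and 345, 261, 377, 406 and 367 FPKM with vehicle, which overlapped and did not pass (-0.18, limma adjusted p = 0.484). The C8g to C8a ratio was thus 0.825 ± 0.133 in SFN livers and 1.67 ± 0.249 in vehicle livers. Hc, which encodes C5, had 289, 285, 220.4, 275 and 277 FPKM with SFN and 195, 185, 179, 159.6 and 168 FPKM with vehicle (0.60, standard error 0.09, limma adjusted p = 0.0049). C9, the pore-forming subunit, had 226 to 331 FPKM with SFN and 181 to 236 with vehicle (0.39, limma adjusted p = 0.0467), and the call was lost without any 1 of 9 mice, all but mouse 8 (adjusted p 0.0313 to 0.0981). C6 varied widely in both groups, with 45.5 to 104 FPKM with SFN and 48.7 to 93.9 with vehicle.

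Of the complement inhibitors, 2 rose. C4bp, which encodes the C4b-binding protein, was at 225, 244, 219, 194 and 231 FPKM in SFN livers, against 142, 149, 136, 134 and 138 FPKM in vehicle livers (log2 fold change 0.67, standard error 0.07, limma adjusted p = 0.000721). Serping1 had 679, 724, 641, 671 and 763 FPKM with SFN and 483, 429.7, 469, 458 and 482 FPKM with vehicle (0.58, standard error 0.07, limma adjusted p = 0.00185). Both were above the vehicle range in each of the 5 SFN mice. Factor I (Cfi), the protease that inactivates C3b and C4b, had 465 ± 38.2 FPKM with SFN and 389 ± 30.1 with vehicle and missed the threshold (0.26, limma adjusted p = 0.0624). The anaphylatoxin receptor genes were low in liver, C3ar1 at 0.705 ± 0.252 FPKM with SFN and 0.874 ± 0.273 with vehicle and C5ar1 at 0.625 ± 0.265 and 0.896 ± 0.346, and neither passed.

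Of the 6 vitamin K-dependent coagulation factors, 2 rose. Prothrombin (F2) was at 697, 653, 601, 694 and 751 FPKM in SFN livers, against 579, 537, 572, 538 and 513 FPKM in vehicle livers (log2 fold change 0.31, limma adjusted p = 0.0265). Factor X (F10), which cleaves prothrombin, had 250.1, 217, 223, 243 and 248 FPKM with SFN and 198, 184, 186, 189.6 and 196 FPKM with vehicle (0.31, limma adjusted p = 0.0133). The groups did not overlap for either gene, but the F2 call ended without mouse 2, 4, 5 or 10 (adjusted p 0.0235 to 0.0697). The other vitamin K-dependent factors did not pass: F7 was at 76.3 ± 8.13 FPKM with SFN and 66.2 ± 6.62 with vehicle, F9 is given above, protein C (Proc, an anticoagulant protease) was at 444 ± 71.8 and 490.1 ± 34.1, and protein S (Pros1, its cofactor) at 23.9 ± 0.898 and 20.3 ± 2.6. None of the 5 tested cofactors and other factors passed, with fold changes on the log2 scale of 0.03 for F5, -0.23 for F8, 0.11 for F11, 0.15 for F12 and -0.23 for F13b, the fibrin-stabilising factor XIII B chain.

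The inhibitors and the initiator of coagulation did not pass either. Antithrombin (Serpinc1), with 34.4% of its exon bases opposite Zbtb37, was at 338 ± 35.3 FPKM in SFN livers and 332 ± 14.5 in vehicle livers, and heparin cofactor II (Serpind1) at 299 ± 50.1 and 295 ± 16.4. Genes of low level in liver did not pass, with lower means in SFN livers. Thbd was at 0.706 ± 0.169 FPKM with SFN and 1.3 ± 0.525 with vehicle (limma adjusted p = 0.0901), F3 at 1.66 ± 0.752 and 2.37 ± 0.292 (limma adjusted p = 0.148) and Tfpi at 1.11 ± 0.468 and 1.5 ± 0.232 (limma adjusted p = 0.207). The summed level of 8 endothelial markers was 16.3 to 29.7 FPKM in SFN livers and 19.5 to 40.9 FPKM in vehicle livers, and 7 of the 8 had a mean of at least 0.5 FPKM. Its part in those 3 values was not tested.

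The kinin system split. Kng1, the precursor of bradykinin, was at 1291, 1037, 968, 1164 and 1207 FPKM in SFN livers, against 877, 836, 773, 782 and 839 FPKM in vehicle livers (log2 fold change 0.46, standard error 0.09, limma adjusted p = 0.0135). Kng2 had 193, 175, 173, 172 and 185 FPKM with SFN and 153, 159, 142, 132 and 125 FPKM with vehicle (0.34, standard error 0.08, limma adjusted p = 0.0186). The 2 kininogen genes are close copies. In vehicle BAT, where Kng2 averaged 71.2 FPKM, Kng1 averaged 0.0256 FPKM, so few Kng2 reads were assigned to Kng1 there. Whether Kng1 reads were assigned to Kng2 in liver is uncertain. Klkb1, plasma prekallikrein, whose active form releases bradykinin from kininogen, was at 46.4, 33.4, 23.3, 44.6 and 36.1 FPKM in SFN livers, against 58.4, 47.6, 47.2, 57.2 and 64.2 FPKM in vehicle livers (-0.61, standard error 0.18, limma adjusted p = 0.0459). Every SFN liver was below every vehicle liver, by as little as 46.4 against 47.2 FPKM, and the adjusted p rose above 0.05 without mouse 1, 2, 3, 4, 5, 7, 8 or 10 (range 0.0295 to 0.104). Of the Klkb1 exon bases, 43.2% also belong to Gm45753, which was at 0.0303 FPKM or less in every liver. The Klkb1 to Kng1 ratio was 0.0321 ± 0.00552 with SFN and 0.0668 ± 0.00813 with vehicle.

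All 3 fibrinolysis genes rose. Cpb2, which encodes the thrombin-activatable fibrinolysis inhibitor, was at 601, 915, 884, 569 and 952 FPKM in SFN livers, against 259, 249.7, 243, 223 and 213 FPKM in vehicle livers (log2 fold change 1.69, standard error 0.15, limma adjusted p = 0.00043). Mice 7, 8 and 10 were again highest, and the groups did not overlap. Serpinf2, alpha 2-antiplasmin, had 783, 678, 619.5, 599 and 699 FPKM with SFN and 497, 415, 461, 401 and 406 FPKM with vehicle (0.63, standard error 0.09, limma adjusted p = 0.00499). Plasminogen (Plg), the precursor of the enzyme that both restrain, had 889.5, 835, 704, 849.9 and 920.2 FPKM with SFN and 674, 622, 663, 599 and 563 FPKM with vehicle (0.42, standard error 0.09, limma adjusted p = 0.0158). Of the Plg exon bases, 11.3% lie opposite Slc22a3, which averaged 1.89 FPKM with SFN and 1.86 with vehicle. The Cpb2 to Plg ratio was 0.946 ± 0.263 in SFN livers and 0.38 ± 0.0136 in vehicle livers.

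**Figure D3:**
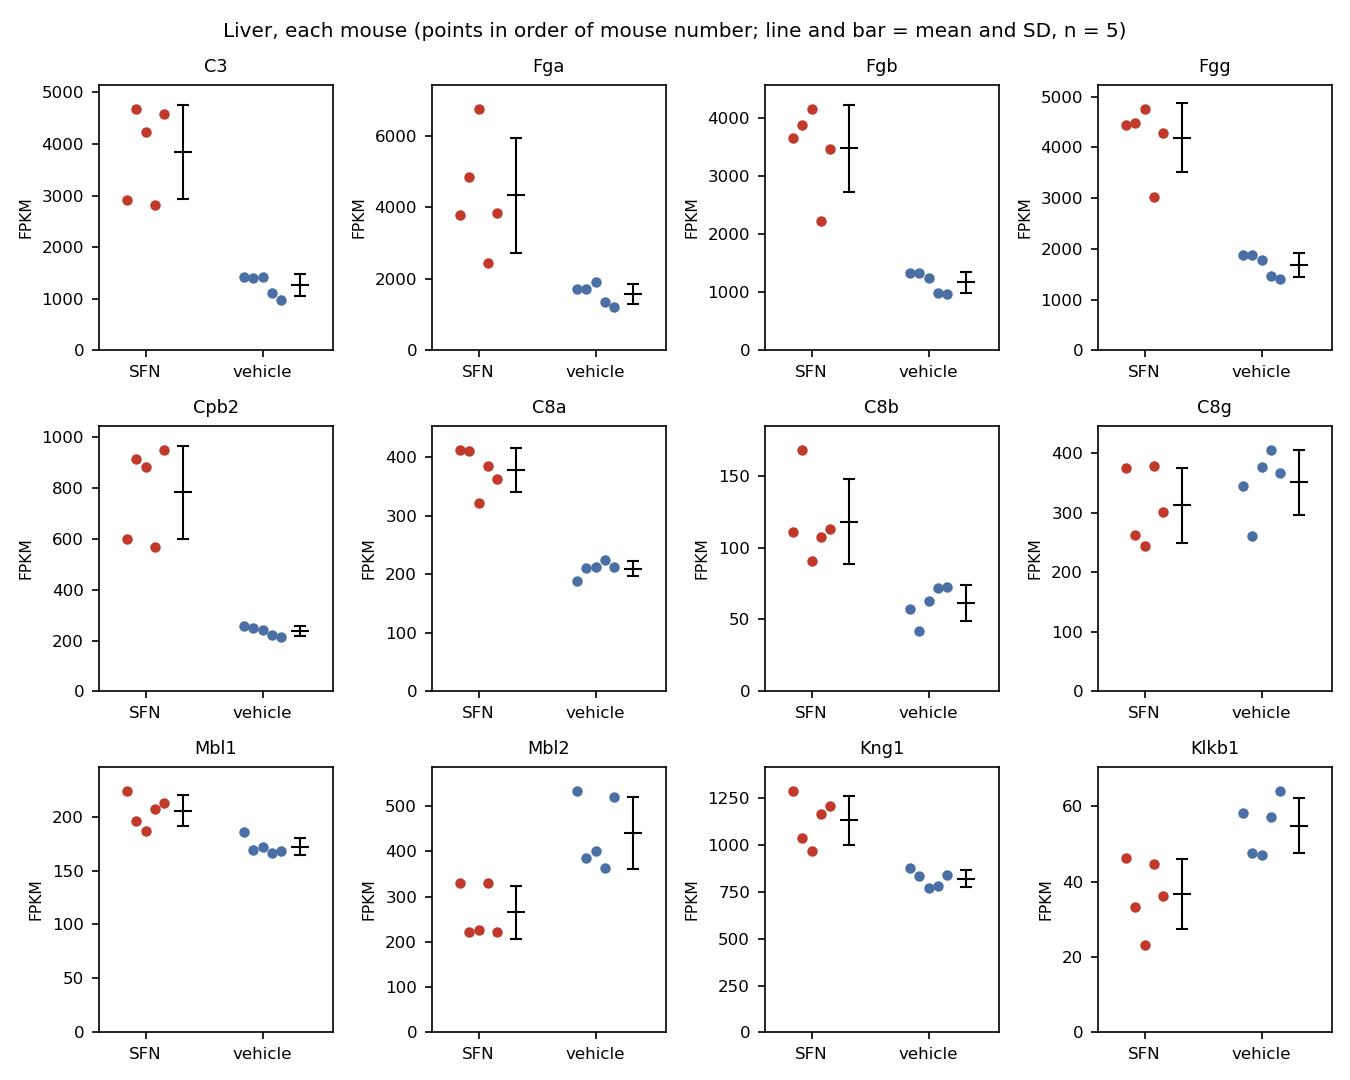
FPKM in the liver of each mouse for 12 of the genes, SFN mice 6 to 10 on the left and vehicle mice 1 to 5 on the right of each panel, with mean and SD. C3, the fibrinogen chains, Cpb2, C8a and C8b lie above the vehicle range in all 5 SFN mice, C8g overlaps, and Mbl2 and Klkb1 lie below it.

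The SFN livers differed among themselves. Over all 49 genes tested, the median log2 difference from the vehicle mean was 0.25, 0.12, 0.01, 0.27 and 0.31 in SFN mice 6 to 10, against 0.06, 0.00, 0.00, -0.02 and 0.03 in vehicle mice 1 to 5. Among the genes that passed as higher, mice 6 and 10 were the highest SFN mouse for 7 and 5 of the 19 genes, and mice 8 and 9 the lowest for 9 and 8. Sums of cell-type markers moved as well, though changed cell numbers and changed expression of the markers themselves cannot be told apart. The summed level of 12 hepatocyte markers was 82700, 59200, 54500, 72900 and 60400 FPKM in SFN mice 6 to 10, against 69100 to 77500 FPKM in vehicle mice, so that mice 7, 8 and 10 were under the vehicle range. The 12 macrophage markers summed to 135 to 234 FPKM in SFN livers and 121 to 219 FPKM in vehicle livers, and the 6 fibroblast markers to 30.2 to 44.9 and 52.7 to 65.9 FPKM. Their part in the liver results was not tested.

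Other genes of the cascades, 50 further genes from a list of regulators, receptors and other components, were read from the same fit. This list too was chosen with earlier results of these data known, so its shares are a description. In liver 34 of them were tested, 8 were higher with SFN (23.5%, beside the 6.89% of all genes given above) and 2 were lower (5.88%, beside 6.19%), with a median log2 fold change of 0.03. Serpina10, the protein Z-dependent inhibitor of factor X, was at 173, 245, 255, 138 and 236 FPKM in SFN livers, against 77.7, 79.4, 76.2, 63.2 and 70 FPKM in vehicle livers (log2 fold change 1.48, limma adjusted p = 0.00114). Vitronectin (Vtn), which blocks the membrane attack complex, had 2456, 3610, 3263, 2407 and 3395 FPKM with SFN and 1596, 1409, 1533, 1502 and 1467 FPKM with vehicle (0.99, limma adjusted p = 0.00282). For both genes every SFN liver was above every vehicle liver. Clusterin (Clu), another inhibitor of that complex, had 900.2 to 1202 FPKM with SFN and 662 to 752 with vehicle (0.63, limma adjusted p = 0.00499), and Ggcx, the carboxylase that activates the vitamin K-dependent factors, 32.6 to 40 and 26.2 to 30.3 FPKM (0.35, limma adjusted p = 0.0109).

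Among the other genes that passed were C1rl, Habp2 and A2m, which were higher with SFN, and the collectin gene Colec11 and the membrane attack inhibitor Cd59b, which were lower. A2m, alpha 2-macroglobulin, is known in rodents as an acute-phase protein, and it is described because of its spread, after its values were seen. It had 23, 4947, 11984, 72 and 4964 reads in SFN livers, against 2, 2, 6, 4 and 2 reads in vehicle livers. SFN mice 7, 8 and 10 thus held nearly all of it, and with so few vehicle reads no fold is given. None of these other cascade genes passed in another tissue by limma (at an unadjusted p under 0.05, 5 were higher and 5 lower in eWAT, 0 and 7 in iWAT, 2 and 5 in BAT, 1 and 2 in skeletal muscle and 2 and 0 in hypothalamus). The share of all genes at that unadjusted cut-off is not given, so these counts are not read as results about the list.

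In eWAT 23 of the 50 genes were tested and 1 passed, beside 0.209% of all genes tested in either direction. The median log2 fold change was 0.28 over the 23 genes and 0.00 over all genes. At an unadjusted p under 0.05, 7 were higher. No share of all genes at that cut-off is given for any tissue, so such unadjusted counts say nothing particular to these genes. The gene that passed was Kng2, at 3.09, 2.93, 3.37, 3.57 and 5.42 FPKM in SFN mice, against 1.11, 1.95, 1.15, 0.93 and 1.02 FPKM in vehicle mice (log2 fold change 1.52, standard error 0.21, limma adjusted p = 0.0295). Every SFN mouse was above every vehicle mouse, on 181 to 481 reads with SFN and 58 to 115 reads with vehicle. The call did not hold without mouse 1, 3, 4, 6, 7 or 10, with an adjusted p of 0.036 to 0.0933 over the 10 mice left out in turn. Kng2 was far lower here than in liver or BAT.

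The 3 C1q chains were 2.13-fold (C1qa), 1.84-fold (C1qb) and 1.86-fold (C1qc) the vehicle level in SFN eWAT without passing. C1qa was at 1055, 865, 834, 1635 and 1292 FPKM in SFN mice, against 442, 605, 598, 559 and 405 FPKM in vehicle mice (1.09, standard error 0.21, limma adjusted p = 0.082). C1qb had 1278, 1064, 1091, 1514 and 1608 FPKM with SFN and 654, 839.5, 814, 743 and 509 FPKM with vehicle (0.88, limma adjusted p = 0.0852), and C1qc 467 to 718 FPKM with SFN and 220.4 to 370.1 with vehicle (0.90, limma adjusted p = 0.0852). The groups did not overlap for any chain, and DESeq2 on the recovered reads called all 3, with adjusted p = 1.28e-05 for C1qa, 3.48e-05 for C1qb and 0.000114 for C1qc, whereas edgeR gave 0.0595, 0.0652 and 0.0704. These chains, which share 1 protein and neighbouring genes on chromosome 4, are not independent readings. The groups did not overlap for properdin (99.3 to 256 FPKM with SFN, 46.7 to 91.8 with vehicle, limma adjusted p = 0.163) and Pros1 (39 to 49.5 and 29.7 to 36.9 FPKM, limma adjusted p = 0.129) either, and neither passed. The share of all eWAT genes that DESeq2 called, or whose groups did not overlap, is not given. Neither reading therefore sets these genes apart from other genes in eWAT.

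Macrophage markers differed between the same mice. The 12 markers, 11 of them at a mean of at least 0.5 FPKM, summed to 3500, 3250, 3400, 5810 and 4720 FPKM in the eWAT of SFN mice 6 to 10, against 4080, 3960, 3720, 2490 and 1620 FPKM in that of vehicle mice 1 to 5. The groups overlapped, and SFN mouse 9 was highest and vehicle mouse 5 lowest. Divided by that sum, C1qa was 0.301, 0.266, 0.245, 0.281 and 0.274 in SFN mice and 0.108, 0.153, 0.161, 0.225 and 0.25 in vehicle mice, so 4 of the 5 SFN ratios were above all vehicle ratios. For the receptor genes C3ar1 and C5ar1, whose levels were 94.5 ± 7.51 and 110.5 ± 10.2 FPKM with SFN, against 72.4 ± 21.5 and 86.3 ± 24.2 FPKM with vehicle, the same division gave 0.0238 ± 0.00456 and 0.028 ± 0.00644 in SFN mice and 0.0232 ± 0.00228 and 0.0278 ± 0.00351 in vehicle mice. The 6 microglia markers, 4 of them at a mean of at least 0.5 FPKM, summed to 110, 107, 96.8, 82.5 and 116 FPKM in SFN eWAT, against 85.3, 89.5, 90.7, 88.3 and 57 FPKM in vehicle eWAT, and the 6 platelet and megakaryocyte markers, 4 of them at that mean, to 121 to 201 and 81.4 to 142 FPKM. In hypothalamus the same microglia markers summed to 42 to 48.9 FPKM with SFN and 43.8 to 47.1 FPKM with vehicle, below every eWAT library. In eWAT that sum is therefore not read as microglia. The part of the cells behind these marker sums in the C1q levels was not tested. C3 in eWAT did not pass, at 601, 610.3, 597, 739.7 and 794 FPKM with SFN and 393, 469, 582, 715 and 767 FPKM with vehicle (0.23, limma adjusted p = 0.642).

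**Figure D4:**
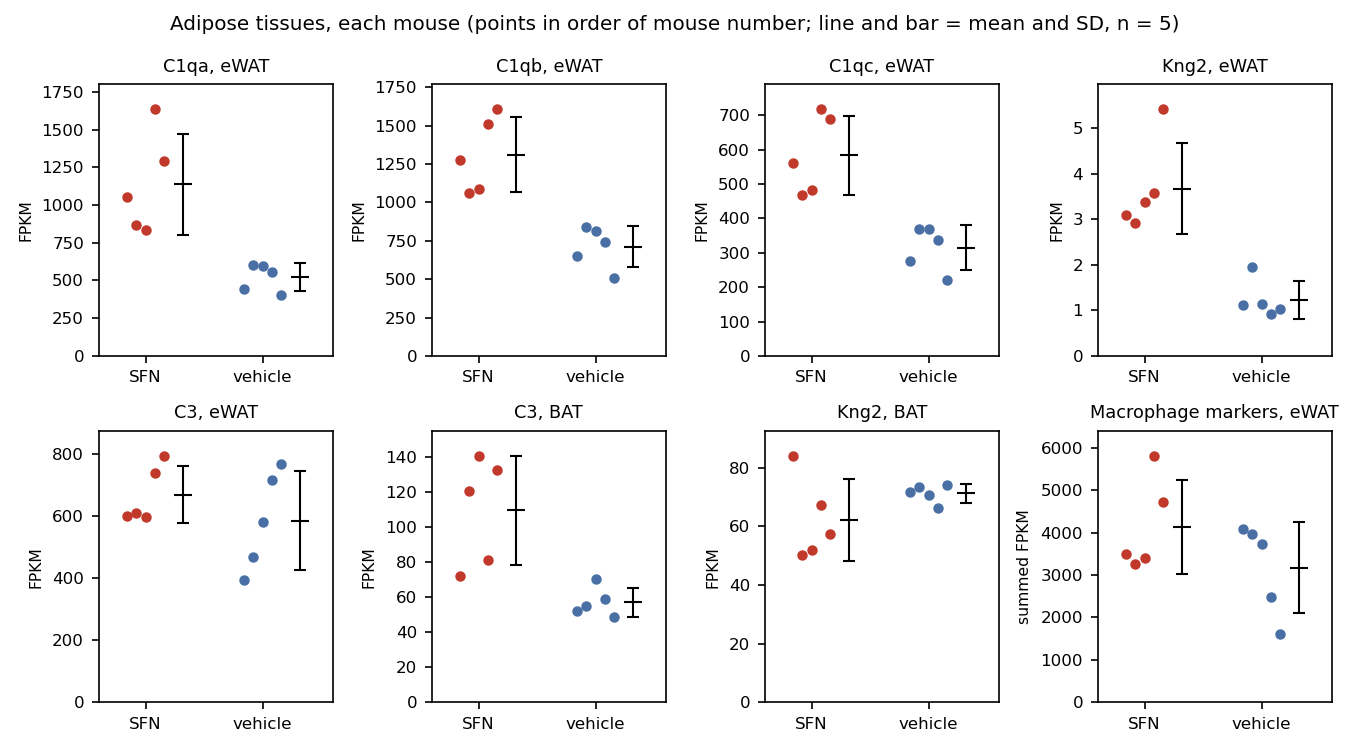
FPKM in each mouse for C1qa, C1qb, C1qc, Kng2 and C3 in eWAT and for C3 and Kng2 in BAT, with the summed FPKM of 12 macrophage markers in eWAT, SFN mice on the left and vehicle mice on the right of each panel, with mean and SD. The C1q chains and Kng2 in eWAT and C3 in BAT do not overlap between the groups, whereas C3 in eWAT and the macrophage sum do.

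In BAT 19 genes were tested and 0 passed by limma, beside 0.0075% of all genes tested (1 gene at an unadjusted p under 0.05, 0 by edgeR, 1 by DESeq2). C3 had the smallest p, at 72.3, 121, 141, 81.6 and 133 FPKM in SFN mice, against 52.4, 55.1, 70.7, 59 and 49 FPKM in vehicle mice (0.90, standard error 0.19, limma adjusted p = 0.0808, DESeq2 adjusted p = 5.29e-05). Mice 7, 8 and 10, which had the highest C3 in liver, had the highest here as well, and the groups did not overlap. That order was not shared by C3 in eWAT, where mouse 8 was the lowest SFN mouse. Marker levels differed between the same mice. The 6 adipocyte markers summed to 3660 to 3920 FPKM in SFN mice and 2980 to 3540 FPKM in vehicle mice, and the 6 fibroblast markers to 96.3 to 139 and 134 to 464 FPKM, and the 2 libraries richest in muscle markers were SFN mouse 7 and vehicle mouse 3. Their part in the C3 level was not tested. F7 was at 0 to 0.503 FPKM with SFN and 0.331 to 1.26 with vehicle, and Kng2 at 84.1, 50.1, 51.8, 67.2 and 57.5 FPKM with SFN and 71.7, 73.5, 70.7, 66.2 and 74 FPKM with vehicle. Neither passed, and the 5 SFN values of Kng2 were spread around the narrow vehicle range.

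In iWAT 21 genes were tested and 0 passed by limma, beside 0.00707% of all genes tested (2 genes at an unadjusted p under 0.05, 0 by edgeR, 1 by DESeq2). C2 was at 3.88, 4.43, 3.83, 4.36 and 3.93 FPKM in SFN mice, against 2.99, 2.51, 3.38, 3.51 and 3.24 FPKM in vehicle mice (0.38, limma adjusted p = 0.371, DESeq2 adjusted p = 0.00841). C6 had 5.24 to 10.7 FPKM with SFN and 7.44 to 21 with vehicle, and Cfp 25 to 44.9 and 23.7 to 31.2 FPKM. An alternative chosen after seeing the data, without the 4 lymphocyte-rich libraries, left 2 SFN and 4 vehicle mice and also called 0 genes, a size at which this says little.

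In skeletal muscle 14 genes were tested and 0 passed by limma, beside 0% of all genes tested (0 at an unadjusted p under 0.05, 0 by edgeR and 0 by DESeq2). The smallest p-values were those of Pros1 (2.9 ± 0.483 FPKM with SFN, 3.36 ± 0.292 with vehicle), Thbd (7.31 ± 0.435 and 6.74 ± 0.187) and F3 (1.74 ± 0.642 and 2.25 ± 0.638). In hypothalamus 15 genes were tested and 0 passed by limma, again beside 0% of all genes tested (1 at an unadjusted p under 0.05, 0 by edgeR and 0 by DESeq2). Vwf had 1.54, 1.69, 1.16, 0.972 and 1.13 FPKM in SFN mice, against 0.986, 0.961, 0.651, 0.683 and 0.638 FPKM in vehicle mice (0.66, limma adjusted p = 0.651), with SFN mouse 9 inside the vehicle range. C1qc was at 10.9 to 13 FPKM with SFN and 11.9 to 13.6 with vehicle, and Thbd at 1.9 to 4.16 and 1.59 to 4.07.

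Whether the SFN response differed between liver and another tissue could be tested where both tissues averaged 0.5 FPKM or more, which leaves out most of the genes made in liver alone. C3 rose more in liver than in iWAT by 1.63 on the log2 scale (standard error 0.25, limma adjusted p = 0.00316; 0.0193 with the mouse as a block) and more than in hypothalamus by 1.36 (standard error 0.27, limma adjusted p = 0.00558; 0.0173 with the block). Against eWAT the difference was also 1.36 (limma adjusted p = 0.013), but with the block it was 0.0503, and leaving out mouse 4 gave 0.0513. Against skeletal muscle it was 1.75 (limma adjusted p = 0.0247), with the block 0.0641, and up to 0.0794 with mouse 4, 5 or 7 left out. C3 against BAT passed only with the block (0.69, adjusted p = 0.0174). The same liver values enter all 5 of these comparisons, and the block pairs libraries with the same mouse number.

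For Kng2 and 2 of the C1q chains the difference had the other sign, with the higher log2 fold change in eWAT, where the C1q chains had not passed on their own. The liver-minus-eWAT difference was -1.17 for Kng2 (limma adjusted p = 0.0114; 0.0177 with the block), -1.17 for C1qa (0.0287; 0.035 with the block) and -1.0 for C1qc (0.0403; 0.0286 with the block), and for C1qb it was -0.85 (0.0612; 0.0431 with the block). The C1qa call ended without mouse 2, 4, 5 or 6 and the C1qc call without any 1 of 9 mice, all but mouse 1, with adjusted p up to 0.0727 and 0.0913. In all, 4 of the 22 genes tested differed between liver and eWAT, beside 4.1% of all genes tested, and 1 of 20 between liver and iWAT, beside 3.58%.

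Against BAT 2 of 18 genes differed, beside 5.5% of all genes tested: Serping1 by 0.76 (limma adjusted p = 0.0321; 0.0542 with the block) and Kng2 by 0.56 (0.0353; 0.0328 with the block). Against skeletal muscle 3 of 13 differed, beside 6.97%: C3, Serping1 by 0.74 (limma adjusted p = 0.0306; 0.0666 with the block) and Pros1 by 0.46 (0.0477; 0.0614 with the block). Against hypothalamus 1 of 14 differed, C3, beside 10.3%. Leaving out single mice ended the Serping1, Kng2 and Pros1 calls. Against BAT, the Serping1 call ended without any 1 of 9 mice, all but mouse 5 (adjusted p up to 0.088), and the Kng2 call without any 1 of 8, all but mice 6 and 9 (up to 0.0967). Against skeletal muscle, the Serping1 call ended without mouse 1, 4, 5, 6, 7 or 10 (up to 0.087) and the Pros1 call without any 1 of 9, all but mouse 8 (up to 0.124). With the block, Thbd also differed, by -0.92 between liver and eWAT (adjusted p = 0.0411) and by -0.98 between liver and BAT (adjusted p = 0.0328). The share of all genes that differed with the block is not given.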

How the data were processed

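Polyadenylated RNA extracted with Trizol was sequenced from 60 libraries. The authors deposited FPKM values per gene for every library, and comparison tables with read counts beside their own fold changes and p-values, which were not used. The submitters' processing notes name the builds mm10 and GRCm38, and for the aligner, counter and annotation nothing is stated (not given in the sources used here). Whole read counts, to within 0.01 reads, were recovered from the deposited FPKM for 100.0% of the 38197 genes above 0. For 544 of these, Proc among them, the smallest gene length that gave whole reads was used. Their counts may be too low by a whole factor. Of 146080 known counts compared, 0 differed, but the same counts had set the library scaling, so this is no independent check. Depth was 15014549 to 25629640 reads a library.

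SFN and vehicle mice were compared within each tissue on log2(FPKM + 0.1) with limma 3.58.1 (R 4.3.3), for genes at a mean of at least 0.5 FPKM, at a Benjamini-Hochberg adjusted p under 0.05. Fold changes on that scale understate those of low genes. Single genes also had an exact two-sided permutation test. Alternatives were a pseudocount of 1, no filter, a minimum of 1 FPKM, equal library totals, edgeR 4.0.16, DESeq2 1.42.0, all tissues in 1 fit, each mouse left out and, between tissues, the mouse as a block. Libraries with the same number in the 6 tissues were taken as 1 mouse, which is where the pairing comes from. The mean correlation of deviations between tissues under 1 number was 0.001 to 0.061. Values this low do not show by themselves that the numbers match mice. Scripts were tested on simulated data.

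The 50 genes and all lists were chosen with earlier results of these data known. Values per mouse are given in liver for up to 3 genes a role with the largest change among those that passed, elsewhere for genes that passed or the 3 with the smallest p, and for up to 5 other cascade genes, of which 1 is not reported here. Some further genes, A2m and the ratios were chosen after their values were seen.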

Additional observations from a re-analysis of the deposited data

Results flagged for a closer look

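Single mice stood apart from the other 4 of their group in 8 of the 84 groups of 5 looked at, where chance flags about 1 in 20. In liver these were Hc in SFN mouse 8 (220.4 FPKM, next 275), C8b in SFN mouse 7 (168 FPKM, next 113) and Fgg in SFN mouse 9 (3012 FPKM, next 4278). In eWAT Kng2 stood apart in SFN mouse 10 (5.42 FPKM, next 3.57) and in vehicle mouse 2 (1.95 FPKM, next 1.15). In skeletal muscle it was Pros1 in SFN mouse 8 (3.75 FPKM, next 2.77), and in hypothalamus Thbd in SFN mouse 6 (4.16 FPKM, next 2.54) and vehicle mouse 1 (4.07 FPKM, next 1.95).

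The SFN response differed between liver and another tissue by limma for 11 pairs of gene and tissue. The liver-minus-other difference in log2 fold change was 1.36 for C3 against eWAT, 1.63 against iWAT, 1.75 against skeletal muscle and 1.36 against hypothalamus. It was -1.17 for C1qa, -1.0 for C1qc and -1.17 for Kng2 against eWAT. It was 0.76 for Serping1 and 0.56 for Kng2 against BAT, and 0.74 for Serping1 and 0.46 for Pros1 against skeletal muscle.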

How the results depend on the processing

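The liver count of 19 higher genes was 15 to 19 with 1 mouse left out, 15 with no filter, 17 with equal library totals, 14 with all tissues in 1 fit and 21 by DESeq2. The liver count of 2 lower genes was 1 with no filter, 4 with all tissues in 1 fit and 1 to 3 with 1 mouse left out. In eWAT the 1 higher gene became 0 with no filter, 6 by DESeq2, 4 with all tissues in 1 fit and 0 to 1 with 1 mouse left out. DESeq2 called 1 gene higher in iWAT and 1 in BAT. The share of all genes called by DESeq2 or under any other alternative is not given for any tissue. These counts therefore say nothing particular to the list. Among other cascade genes in liver, the 8 higher were 5 with all tissues in 1 fit and 5 to 8 with 1 mouse left out, and the 2 lower were 1 with no filter, 5 with equal library totals, 6 by DESeq2 and 0 to 3 with 1 mouse left out. The cause of these changes was not tested.

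With the mouse as a replicate block, the response differences against eWAT numbered 0 higher and 5 lower, against BAT 1 lower and against skeletal muscle 0 higher. With 1 mouse left out they were 0 to 2 higher and 1 to 4 lower against eWAT, 1 to 2 higher against iWAT, 0 to 1 higher against BAT, 0 to 3 higher and 0 to 1 lower against skeletal muscle and 0 to 1 lower against hypothalamus. A pseudocount of 1 gave 2 higher against iWAT. The shares of all genes under these settings are not given, so the counts are not read as results about the list. No paired analysis was possible within a tissue because the groups are different mice.

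Single genes had 712 values under an alternative. Of these, 651 kept direction and side of the threshold, 54 lost the call, 7 gained it and 0 reversed. Of the 27 calls followed in this way, 18 held under every alternative run. The 27 are the 21 liver calls of the 50 genes, Kng2 in eWAT and other cascade genes in liver. C1rl, Habp2, A2m, Colec11 and Cd59b were not among them. With all tissues in 1 fit, C4b (adjusted p = 0.556), Mbl1 (0.437), F10 (0.566), Kng2 (0.187) and Clu (0.361) in liver lost it by limma, as did C9, at a log2 fold change of 0.39. Genes under a mean of 0.5 FPKM were left out of the main comparison of SFN with vehicle, and those above 0 entered the alternative with no filter.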
